A study of Mus musculus with 14 samples.

Results

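Mouse embryonic fibroblasts that received SKO with an empty Flag vector were compared with fibroblasts that received GFP. The comparison used 6 of the 14 arrays of the series, chosen by their titles. It covered all 19935 genes named by a probe set with 1 gene symbol, each read from 1 probe set. The 4 SKO+Flag arrays comprised 2 of cells lysed at day 6 and 2 of cells lysed at day 10, numbered 1 and 2 in their titles. There were 2 GFP arrays, 1 of each day. All cells were of the ICR strain and grew in embryonic stem cell medium, and feeder cells had been removed before RNA was taken. SKO is not written out in the labels; the letters usually mean the transcription factors Sox2, Klf4 and Oct4, the product of Pou5f1. The sources used here give no promoter for the transgenes, no count of transduced cells and no number of embryos, and a free-text line repeated on every array names a pre-iPSC sample that was not used to assign groups. The series asks what HDAC7 or MEF2C adds to SKO, so the present comparison measures the background that both of those factors were added to.

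Oct4, Sox2 and Klf4 are transcription factors of the early embryo that, expressed together in fibroblasts, can turn a small share of the cells into induced pluripotent stem cells. The early steps of that process are known to include loss of the fibroblast programme (matrix, contractile filaments and the transcription factors Snai2, Twist and Prrx), gain of epithelial adhesion genes, faster division and changes of metabolism. Genes of the pluripotent state itself, such as Nanog, are known to be activated late and in few cells. RNA from such cultures is an average over cells at different steps, and in bulk RNA fewer cells of a type and less RNA per cell cannot be told apart.

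Values are log2 expression levels as deposited, and a difference is SKO+Flag minus GFP on the log2 scale, so that 1 is a doubling. A gene was called, and is said here to have risen or fallen, at a Benjamini-Hochberg adjusted p under 0.05 in limma, fitted to all 14 arrays. The mean difference gives both days equal weight. Leaving out the GFP array of 1 day turns it into the difference of the other day alone, and values or counts given for day 6 alone or day 10 alone are at the same time those leave-out values. Each GFP group is 1 array, so its spread was taken from the other groups, and the labels do not say that the numbered experiments were separate cultures. The p-values therefore rest on the spread among the arrays at hand, and that spread may be technical. Array medians lay between 5.68 and 5.76. No detection calls were used and no floor of the arrays was measured. Where both GFP values lay below their array medians, a rise may be understated, and it is called a lower bound here in that sense. Over the 6 arrays principal component 1 carried 74.0% of the variance, with GFP (45.0 and 49.6) apart from SKO+Flag (-31.4 to -17.6). The second held 11.2% and separated the days within SKO+Flag (14.8 and 17.4 at day 6 against -17.6 and -11.5 at day 10). A further fit used only the 6 compared arrays, with vector and day as additive terms, and is called the 6-array fit. It has no term for a change of the difference between days, so such a change adds to its spread. A call lost in it is therefore not only a matter of fewer arrays. Its counts are given for a gene list where they differ by over 1.5 times.

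Marker lists were read on the GFP arrays against the array median. Of 22 fibroblast surface and filament genes, 20 lay above the array median on both GFP arrays. Of 16 macrophage and blood markers 0 did so, of 16 endothelial markers 5, and of 15 keratinocyte markers 1. Other lists held more such genes: simple keratins 4 of 7, adipocyte and cartilage markers 6 of 13, striated muscle 7 of 20, neural and glial 5 of 14 and junction genes 10 of 27. Lists that mark no cell type passed this cut in full, such as respiratory chain (29 of 29) and ribosome biogenesis genes (29 of 29). The cut by itself therefore does not identify the cell type, and the share over all genes is not given here.

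Of the transduced factors, Pou5f1 alone separated the groups. It lay at 11.99 and 11.77 at day 6 and 11.98 and 12.10 at day 10 in SKO+Flag and at 5.24 at day 6 and 5.18 at day 10 in GFP. Its measured difference was 6.75 ± 0.07 (SE, limma adjusted p = 2.4e-13), a lower bound. Klf4 was well above the array median everywhere, at 8.85 and 9.05 at day 6 and 9.03 and 8.93 at day 10 in SKO+Flag and 8.93 at day 6 and 8.66 at day 10 in GFP. Sox2 was below it everywhere, at 5.21 and 5.17 at day 6 and 5.37 and 5.31 at day 10 in SKO+Flag and 4.93 at day 6 and 5.27 at day 10 in GFP. For both genes the groups overlapped, and neither passed the test (Sox2 0.16 ± 0.07, limma adjusted p = 0.082; Klf4 0.17 ± 0.07, limma adjusted p = 0.081). Sox2 passed after quantile normalization (0.22, limma adjusted p = 0.027), and Klf4 passed after median centring (0.21, limma adjusted p = 0.027) and without SKO+Flag day 6 replicate 1 (0.22, limma adjusted p = 0.031). Klf4 also passed at day 10 alone (0.32 ± 0.10 SE, limma adjusted p = 0.035), which is the comparison left without the day 6 GFP array. Which parts of the 3 transcripts the probe sets cover, and so whether they read the transgenes, was not checked.

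As the mean of both days 7118 of the 19935 genes (35.7%) passed the test: 17.5% of all genes rose and 18.2% fell, so the count of any gene group is read against those shares. At day 6 alone the shares were 13.2% and 10.8%, and at day 10 alone 13.7% and 13.2%. The median difference of all genes was -0.04. A rise of at least 1 was called for 602 genes (3.02%) and a fall of at least 1 for 301 (1.51%).

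The 15 genes raised most by measured difference encode, beside the transcription factor Oct4, enzymes, receptors, surface proteins and secreted proteins. Of the 15, 10 lay below the array median on both GFP arrays, so that their rank is one of lower bounds. Akr1c18, an aldo-keto reductase that inactivates progesterone, lay at 11.37 and 11.48 at day 6 and 10.50 and 10.53 at day 10 in SKO+Flag and at 5.13 at day 6 and 5.01 at day 10 in GFP (5.90 ± 0.05 SE, limma adjusted p = 1.3e-13). Its level was thus higher at day 6 than at day 10. The neighbouring family member Akr1c14 behaved alike, at 8.86 and 8.84 at day 6 and 7.63 and 8.18 at day 10 against 4.98 at day 6 and 5.05 at day 10 (3.36 ± 0.12 SE, limma adjusted p = 3e-09). Cross-hybridisation between the 2 was not checked. Akr1c13 of the same family did not pass (-0.06 ± 0.06, limma adjusted p = 0.46). Aldh3a1, an aldehyde dehydrogenase of the cornea and stomach, lay at 10.55 and 10.59 at day 6 and 10.93 and 10.96 at day 10 against 5.14 at day 6 and 5.33 at day 10 (5.52 ± 0.06 SE, limma adjusted p = 7e-13). Gpr50, an orphan receptor related to the melatonin receptors, lay at 10.31 and 10.14 at day 6 and 10.56 and 10.58 at day 10 against 4.60 at day 6 and 4.59 at day 10 (5.80 ± 0.07 SE, limma adjusted p = 1e-12). In every one of these called genes the lowest SKO+Flag array was far above the highest GFP array.

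Trh, which encodes the precursor of thyrotropin-releasing hormone, moved the other way with time, at 9.26 and 9.32 at day 6 and 10.97 and 11.12 at day 10 in SKO+Flag and 5.02 at day 6 and 5.43 at day 10 in GFP (4.94 ± 0.08 SE, limma adjusted p = 4.3e-12). The remaining genes among the 15 raised most were Sbspon, a secreted protein with a thrombospondin domain (5.03 ± 0.06), Crym, which binds thyroid hormone (4.50 ± 0.06), Tmem229b (4.27 ± 0.06), the adhesion molecule gene Ceacam1 (4.26 ± 0.07) and Gna14, a G protein alpha subunit (4.23 ± 0.07). With them were Podxl, the sialomucin podocalyxin (4.05 ± 0.06), Sostdc1, a secreted antagonist of BMP and Wnt signals (3.85 ± 0.06), the junctional adhesion molecule Jam2 (3.77 ± 0.08), the calcium-activated chloride channel Ano1 (3.73 ± 0.06) and the integrin subunit Itga4 (3.66 ± 0.10). The highest limma adjusted p among them was 3.6e-10. Of these 15 genes, 9 had a promoter in the RefSeq table of GRCm38.p6 (250 bases before to 50 after the start). The octamer ATGCAAAT, the sequence Oct4 is known for, was found on either strand in 0 of the 9, against 1.97% of the 27025 genes with a promoter. That says only that these letters are not in those windows.

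**Figure D1:**
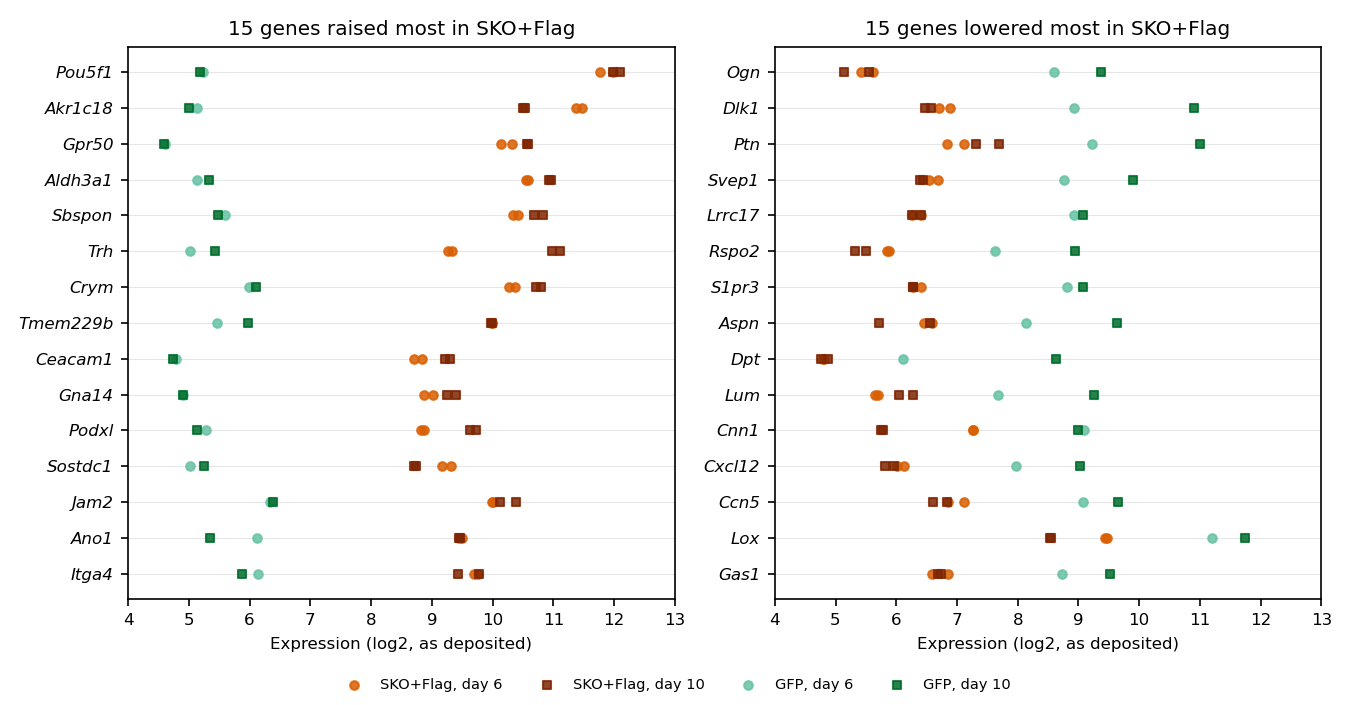
Log2 expression (x axis, as deposited) of the 15 genes raised most and the 15 lowered most in SKO+Flag, with 1 point per array; circles are day 6 and squares day 10. In all 30 genes the 4 SKO+Flag arrays and the 2 GFP arrays do not overlap, which the choice of the largest differences largely fixes (over all genes, 42.5% have groups that do not overlap); Dlk1 in GFP moved from 8.93 to 10.90 between the days while the SKO+Flag arrays stayed between 6.48 and 6.89.

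The 15 genes lowered most encode matrix and other secreted proteins, a receptor, a contractile protein and a membrane-anchored protein. Ogn, which encodes the proteoglycan osteoglycin, lay at 5.41 and 5.61 at day 6 and 5.13 and 5.55 at day 10 in SKO+Flag and 8.59 at day 6 and 9.37 at day 10 in GFP (-3.56 ± 0.13 SE, limma adjusted p = 2.4e-09). Dlk1, an imprinted inhibitor of adipocyte differentiation, lay at 6.70 and 6.89 at day 6 and 6.48 and 6.57 at day 10 against 8.93 at day 6 and 10.90 at day 10 (-3.26 ± 0.10 SE, limma adjusted p = 8.3e-10, with -2.14 at day 6 and -4.38 at day 10). Svep1, a secreted adhesion protein, lay at 6.69 and 6.54 at day 6 and 6.38 and 6.44 at day 10 against 8.76 at day 6 and 9.90 at day 10 (-2.82 ± 0.08 SE, limma adjusted p = 4e-10). All 3 were higher in GFP at day 10 than at day 6, and the groups did not overlap. Lrrc17, a secreted leucine-rich repeat protein (-2.67 ± 0.06), and S1pr3, a receptor for sphingosine 1-phosphate (-2.63 ± 0.06), were at nearly the same level on both GFP arrays. Rspo2, a secreted enhancer of Wnt signals (-2.65 ± 0.07, with -1.77 at day 6 and -3.54 at day 10), the chemokine Cxcl12 (-2.52 ± 0.07), the matricellular Ccn5 (-2.51 ± 0.11), the growth factor pleiotrophin, Ptn (-2.87 ± 0.11), and Gas1, a gene of growth-arrested fibroblasts (-2.42 ± 0.09), completed the set with the matrix and contractile genes Aspn, Dpt, Lum, Lox and Cnn1 described below. The highest limma adjusted p in this set was 8.9e-07.

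Of 33 measured genes of the pluripotency network 9 rose and 4 fell, with a median of -0.05, and 21 lay below the array median on all 6 arrays. L1td1, an RNA-binding protein of embryonic stem cells, lay at 7.11 and 7.22 at day 6 and 7.74 and 7.88 at day 10 against 5.68 at day 6 and 5.31 at day 10 in GFP (1.99 ± 0.07 SE, limma adjusted p = 1.4e-09). Tfcp2l1, a transcription factor of naive pluripotency, lay at 6.60 and 6.54 at day 6 and 7.63 and 7.81 at day 10 against 5.56 at day 6 and 5.50 at day 10 (1.62 ± 0.07 SE, limma adjusted p = 6.4e-09, with 1.01 at day 6 and 2.22 at day 10). Both were higher at day 10 than at day 6 in SKO+Flag while GFP did not rise. Nanog lay between 5.13 and 5.59 in SKO+Flag and at 5.51 at day 6 and 5.39 at day 10 in GFP, so that the groups overlapped (-0.13 ± 0.07, limma adjusted p = 0.21). Without SKO+Flag day 10 replicate 1 its difference was -0.19 (limma adjusted p = 0.028), and at day 6 alone -0.31 (limma adjusted p = 0.047). Klf2 (-0.62 ± 0.10), Klf5 (-0.39 ± 0.07), Tdgf1 (-0.21 ± 0.07, with -0.13 at day 6 and -0.28 at day 10) and Nodal (-0.19 ± 0.07, with -0.27 at day 6 and -0.12 at day 10) fell; the last 2 lost their calls without SKO+Flag day 6 replicate 1 (limma adjusted p = 0.066 and 0.11), without day 10 replicate 2 (0.099 and 0.098) and at either day alone. The count of risers was 4 at day 6 alone, which is what remains without the day 10 GFP array. The count of fallers was 2 without SKO+Flag day 6 replicate 1 and 8 without SKO+Flag day 10 replicate 1. The 6-array fit called 2 fallers, without Tdgf1 and Nodal.

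Enzymes of DNA methylation and of the Polycomb repressive complexes, which write and read silencing marks, rose or did not pass: 11 of 24 rose and 0 fell (median 0.14). Tet2, which oxidises methylated cytosine, lay at 6.68 and 6.79 at day 6 and 6.93 and 7.42 at day 10 against 5.58 at day 6 and 5.55 at day 10 in GFP (1.39 ± 0.11 SE, limma adjusted p = 1.5e-06), with no overlap. Of the catalytic subunits of the Polycomb complex that methylates histone H3, Ezh1 rose by 1.22 and Ezh2 by 0.72, and their partner Suz12 rose by 0.98. Eed, the other core subunit, did not pass (-0.06 ± 0.09, limma adjusted p = 0.68). The de novo methyltransferase Dnmt3a rose by 0.68, whereas Dnmt3b (-0.09 ± 0.09, limma adjusted p = 0.49) and Dnmt3l (-0.07 ± 0.07, limma adjusted p = 0.49) did not pass. Without the day 10 GFP array, that is at day 6 alone, 7 members rose; without SKO+Flag day 6 replicate 2, or without day 10 replicate 2, 10 rose and 1 fell.

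Transcription factors of fibroblasts fell. Of 28 members 20 fell and 3 rose (median -0.47), and at day 6 alone 13 fell. Snai2 and Snai1, repressors of E-cadherin, fell (-1.64 and -1.21), Foxc2 (-1.34), Twist2 (-1.11) and Prrx2 (-1.09, with -0.55 at day 6 and -1.63 at day 10). Zeb1, another repressor of epithelial genes, was at -0.61 ± 0.06. Prrx1 did not pass (0.00 ± 0.06, limma adjusted p = 0.98). Meox2, a mesodermal homeobox gene, rose, at 7.81 and 7.58 at day 6 and 7.38 and 7.65 at day 10 against 5.84 at day 6 and 6.35 at day 10 in GFP (1.50 ± 0.09 SE, limma adjusted p = 1.8e-07), and so did Cebpd (0.91 ± 0.09) and Egr2 (0.67 ± 0.08).

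Surface and filament genes of fibroblasts split by gene: 12 of 22 fell and 5 rose (median -0.25). Pdgfra and Pdgfrb, the receptors for platelet-derived growth factor, fell (-2.25 and -1.68), the collagen-binding integrin subunit Itga11 (-2.37) and Thy1 (-1.39). Dpp4, a surface dipeptidase, went the other way, at 8.94 and 8.88 at day 6 and 8.64 and 8.97 at day 10 against 5.83 at day 6 and 5.30 at day 10 in GFP (3.29 ± 0.10 SE, limma adjusted p = 9e-10). Nt5e, the ectonucleotidase CD73, lay at 8.33 and 8.34 at day 6 and 8.55 and 8.80 at day 10 against 6.79 at day 6 and 6.49 at day 10 (1.87 ± 0.08 SE, limma adjusted p = 6.9e-09). The intermediate filament vimentin (Vim, 0.07 ± 0.05, limma adjusted p = 0.33) did not pass. Here and below, members that moved against most of their list were named after their values had been seen. With day 6 by itself, 8 members fell and 6 rose. In the 6-array fit 3 rose.

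Among collagens, 19 of 28 fell and 2 rose (median -0.36). Those of fibrillar type and their companions led, with Col3a1 at -2.25 ± 0.06, Col12a1 at -2.05 ± 0.06, with -1.19 at day 6 and -2.91 at day 10, and Col5a1 at -1.61 ± 0.06. Of the 2 chains of collagen I, Col1a1 was at -1.14 ± 0.06, with -0.73 at day 6 and -1.55 at day 10. Col1a2 was at -0.18 ± 0.06. Col1a2 lost its call without SKO+Flag day 6 replicate 1 or 2 or day 10 replicate 2 (limma adjusted p = 0.060, 0.065 and 0.077) and at day 6 alone, where the difference was 0.08. The risers were the cartilage collagen Col2a1 (0.34 ± 0.08) and the basement membrane chain Col4a1 (0.21 ± 0.06), which lost its call without SKO+Flag replicate 2 of day 6 or replicate 1 of day 10 (limma adjusted p = 0.063 and 0.051) and at day 10 alone, where the difference was 0.13. Of the collagens 11 fell at day 6 alone. The 6-array fit called neither Col1a2 nor Col4a1, which leaves 1 riser.

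The enzymes that modify and cross-link collagen, with the elastic fibre proteins, formed the list with the lowest median, -1.02: 18 of 20 fell and 2 rose. Lox, the lysyl oxidase that cross-links collagen and elastin, lay at 9.47 and 9.44 at day 6 and 8.55 and 8.52 at day 10 in SKO+Flag and 11.19 at day 6 and 11.74 at day 10 in GFP (-2.47 ± 0.05 SE, limma adjusted p = 7e-11). Its paralog Loxl1 fell (-2.01) and Loxl3 (-0.87), but Loxl4 rose by 1.28. The prolyl hydroxylase subunits P4ha1 (-1.20), P4ha2 (-1.27, with -0.76 at day 6 and -1.79 at day 10) and P4ha3 (-1.19, with -0.65 at day 6 and -1.74 at day 10) fell, and the microfibril proteins Mfap4 (-1.79, with -0.64 at day 6 and -2.94 at day 10), Mfap5 (-1.62) and Mfap2 (-1.41, with -0.84 at day 6 and -1.99 at day 10). Fbln5, which organises elastic fibres, was among the brightest members and rose, at 12.07 and 12.13 at day 6 and 11.51 and 11.61 at day 10 against 10.29 at day 6 and 10.74 at day 10 (1.32 ± 0.05 SE, limma adjusted p = 6.1e-09, with 1.81 at day 6 and 0.82 at day 10).

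Small leucine-rich proteoglycans, which coat collagen fibrils, contained both large falls and a large rise. Beside Ogn, the genes Lum (lumican) and Aspn (asporin) fell (-2.56 and -2.56, the latter with -1.62 at day 6 and -3.51 at day 10), Podn (-1.76, with -0.75 at day 6 and -2.77 at day 10) and Bgn (biglycan) (-1.66). Lum lay at 5.69 and 5.65 at day 6 and 6.05 and 6.27 at day 10 in SKO+Flag and at 7.68 at day 6 and 9.26 at day 10 in GFP. Prelp rose, at 10.39 and 10.12 at day 6 and 9.90 and 9.80 at day 10 against 7.07 at day 6 and 8.51 at day 10 (2.26 ± 0.09 SE, limma adjusted p = 6.5e-09, with 3.18 at day 6 and 1.34 at day 10). In all 8 of 13 members fell and 1 rose, and at day 6 alone 5 fell.

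Adhesive matrix proteins likewise split, with 18 of 26 lower and 6 higher. With day 6 by itself 12 fell and 8 rose, and in the 6-array fit 11 fell. Postn (periostin) fell (-2.17, with -1.11 at day 6 and -3.22 at day 10), Fn1 (fibronectin) (-0.95) and the laminin chain Lamb1 (-1.28, with -0.80 at day 6 and -1.76 at day 10). Other laminin chains rose: Lama2 lay at 8.02 and 8.05 at day 6 and 7.66 and 7.80 at day 10 against 6.37 at day 6 and 6.12 at day 10 (1.64 ± 0.07 SE, limma adjusted p = 6.4e-09) and Lama4 at 10.54 and 10.60 at day 6 and 10.67 and 10.83 at day 10 against 8.47 at day 6 and 9.62 at day 10 (1.62 ± 0.06 SE, limma adjusted p = 4.2e-09). Among proteases and their inhibitors 16 of 26 fell and 5 rose. The plasminogen activators Plat and Plau fell (-2.25 and -1.91), the gelatinase Mmp2 (-1.43, with -0.66 at day 6 and -2.20 at day 10) and its membrane-bound activator Mmp14 (-1.04). Spint2, a Kunitz inhibitor of epithelial surface proteases, rose, at 8.15 and 8.10 at day 6 and 8.96 and 8.96 at day 10 against 6.26 at day 6 and 6.20 at day 10 (2.31 ± 0.06 SE, limma adjusted p = 3.2e-10), and its target protease St14 (matriptase) rose by 0.68, from 0.14 at day 6, which did not pass, to 1.22 at day 10. Of the proteases and inhibitors 2 rose in the 6-array fit, which did not call St14.

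Contractile genes of smooth muscle type, which mark myofibroblasts, fell: 16 of 18 did so and 0 rose (median -0.81). Cnn1 (calponin) lay at 7.26 and 7.26 at day 6 and 5.75 and 5.78 at day 10 in SKO+Flag and 9.08 at day 6 and 8.99 at day 10 in GFP (-2.52 ± 0.08 SE, limma adjusted p = 9.9e-10). Myl9, a myosin light chain, lay at 8.64 and 8.74 at day 6 and 7.55 and 7.67 at day 10 against 9.77 at day 6 and 10.23 at day 10 (-1.85 ± 0.08 SE, limma adjusted p = 8.9e-09, with -1.08 at day 6 and -2.62 at day 10), and Tagln and Acta2 fell, Tagln from -1.16 at day 6 to -2.55 at day 10 (mean -1.86) and Acta2 from -0.80 to -1.92 (mean -1.36). In these genes the SKO+Flag arrays of day 10 were the lowest. The CArG box, bound by serum response factor, stood in 3 of the 15 members with a promoter (20.0%), against 1.81% of all genes with a promoter and 1.63% of all 32851 promoters. Myl9 had the largest fall of the 3, which is why its promoter is shown (GRCm38.p6, chr2:156775214-156775513, plus strand, RefSeq), with the box in capitals; it starts at base -161 from the transcription start.
Myl9: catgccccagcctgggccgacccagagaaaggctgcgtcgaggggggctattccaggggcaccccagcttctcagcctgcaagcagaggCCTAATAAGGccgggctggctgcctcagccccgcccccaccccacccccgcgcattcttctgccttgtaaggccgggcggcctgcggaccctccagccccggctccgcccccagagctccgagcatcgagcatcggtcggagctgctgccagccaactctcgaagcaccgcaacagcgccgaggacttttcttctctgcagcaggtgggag
A match of letters is a description and not a bound site.

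**Figure D2:**
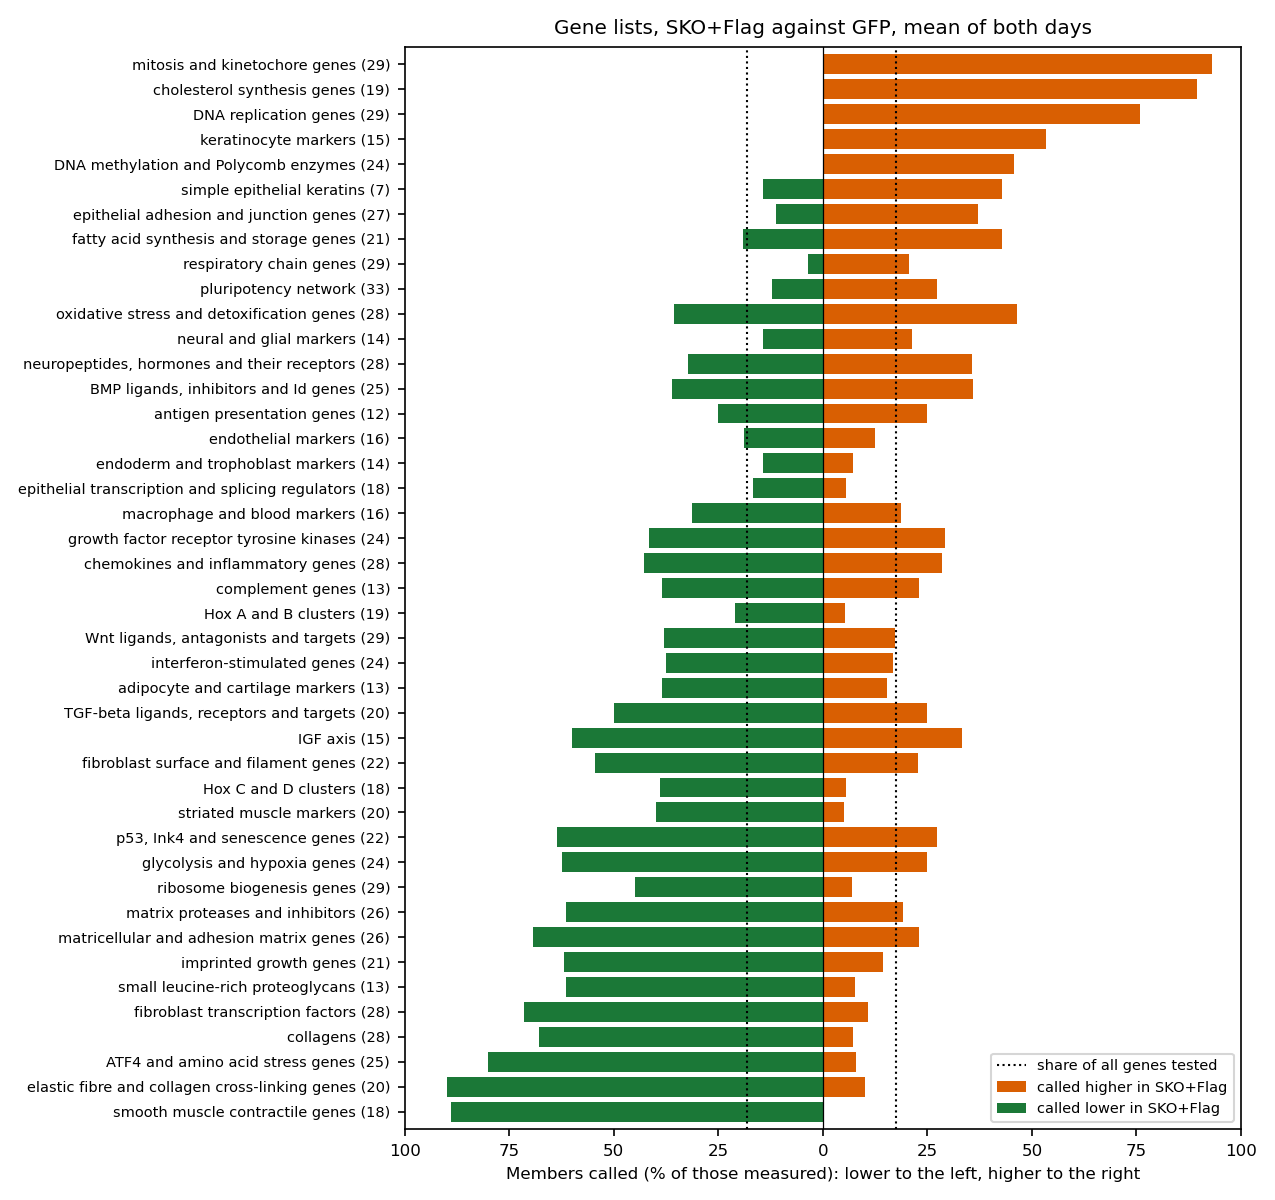
Share of the measured members of each gene list (x axis, %) that passed the test as higher in SKO+Flag (bars to the right) or lower (bars to the left), with the number of members in parentheses; dotted lines give the shares over all genes, 17.5% and 18.2%. Mitosis and kinetochore genes stand at the top with 27 of 29 higher and smooth muscle contractile genes at the bottom with 16 of 18 lower, while lists such as oxidative stress genes extend to both sides.

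Signalling genes moved member by member. In the TGF-beta list 10 of 20 fell and 5 rose. The co-receptor Tgfbr3 lay at 6.43 and 6.50 at day 6 and 6.47 and 6.55 at day 10 against 8.78 at day 6 and 8.87 at day 10 in GFP (-2.34 ± 0.08 SE, limma adjusted p = 2.4e-09), the ligand Tgfb3 fell (-1.85) and the target Tgfbi (-1.51), whereas Skil, an inhibitor of Smad signalling, rose by 1.23. In each day taken alone 3 members rose. In the BMP list 9 of 25 rose and 9 fell. The ligand Bmp2 rose by 1.19 and the target Id1, which holds back helix-loop-helix transcription factors, by 1.21. The ligand Bmp4 fell (-0.97, with -0.39 at day 6 and -1.54 at day 10), and so did Id3 (-0.57), which at day 6 alone was at -0.06 and did not pass. At day 6 alone 9 rose and 4 fell, and at day 10 alone 5 and 8. By the 6-array fit 3 members of the TGF-beta list rose, and of the BMP list 5 fell, without Id3.

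In the Wnt list 5 of 29 rose and 11 fell. Next to Rspo2, the secreted Dkk3 fell (-2.21) and the Wnt-binding antagonist Sfrp4 (-1.51, with -0.76 at day 6 and -2.27 at day 10). The antagonist Dkk2 rose, at 9.26 and 9.12 at day 6 and 9.13 and 9.26 at day 10 against 7.27 at day 6 and 7.63 at day 10 (1.74 ± 0.08 SE, limma adjusted p = 2.1e-08), as did the ligand Wnt2 (1.09 ± 0.08). Axin2, a widely used target of the pathway, did not pass (-0.02 ± 0.06, limma adjusted p = 0.84). By day 6 alone 9 rose and 5 fell. Among receptor tyrosine kinases 7 of 24 rose and 10 fell. Epha7, an ephrin receptor, lay at 9.68 and 9.56 at day 6 and 9.10 and 9.50 at day 10 against 6.44 at day 6 and 6.98 at day 10 (2.75 ± 0.10 SE, limma adjusted p = 2.2e-09), and Met, the receptor for hepatocyte growth factor, rose by 1.37. Egfr fell (-1.43) and Fgfr2 (-1.08, with -0.70 at day 6 and -1.47 at day 10).

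Insulin-like growth factors, their binding proteins and imprinted growth genes were lower for the most part. Of 15 members of the IGF axis 9 fell and 5 rose (median -0.59). The ligand Igf2 fell (-2.16), and the binding proteins Igfbp5 (-2.29, with -1.42 at day 6 and -3.17 at day 10), Igfbp4 (-1.46, with -0.68 at day 6 and -2.23 at day 10) and Igfbp2 (-2.26, with -3.53 at day 10). Igfbp3 rose, at 11.95 and 12.02 at day 6 and 11.85 and 11.84 at day 10 against 8.73 at day 6 and 10.78 at day 10 (2.16 ± 0.06 SE, limma adjusted p = 3.6e-10, with 3.25 at day 6 and 1.06 at day 10), and so did the receptor Igf1r (0.99 ± 0.07) and the adaptor Irs2 (1.04 ± 0.12). Of 21 imprinted growth genes 13 fell and 3 rose, with Mest at -2.40, with -1.55 at day 6 and -3.24 at day 10, Peg3 at -1.71, with -1.09 at day 6 and -2.34 at day 10 and the noncoding Meg3 at -1.57. Nnat (neuronatin) rose, at 7.61 and 7.55 at day 6 and 7.59 and 7.78 at day 10 against 5.81 at day 6 and 6.17 at day 10 (1.64 ± 0.08 SE, limma adjusted p = 3.3e-08). The cell cycle inhibitor Cdkn1c did not pass as a mean (-0.02 ± 0.07, limma adjusted p = 0.87). Its differences had opposite signs, 0.46 at day 6 (limma adjusted p = 0.004) and -0.50 at day 10 (limma adjusted p = 0.0021).

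Part of the epithelial adhesion programme rose. Of 27 junction genes 10 rose and 3 fell (median 0.07). The risers were the desmosomal genes Dsp (1.93 ± 0.08), Dsc2 (1.21 ± 0.08), Pkp1 (1.14 ± 0.06, with 0.67 at day 6 and 1.62 at day 10), Perp (2.22 ± 0.06) and Jup (1.57 ± 0.07), the tight junction genes F11r (1.77 ± 0.06), Ocln (0.95 ± 0.11) and Cldn1 (0.43 ± 0.05), and Epcam and Cdh1. Cdh1, which encodes E-cadherin, lay at 6.13 and 6.15 at day 6 and 6.61 and 6.76 at day 10 against 5.53 at day 6 and 5.55 at day 10 in GFP (0.87 ± 0.10 SE, limma adjusted p = 3.8e-05). Its sister Cdh3, which encodes P-cadherin, went down, at 5.26 and 5.46 at day 6 and 5.26 and 5.30 at day 10 against 6.75 at day 6 and 7.48 at day 10 (-1.79 ± 0.07 SE, limma adjusted p = 3.7e-09), as did Pkp3 (-0.18 ± 0.06) and Pard6b (-0.37 ± 0.08). The claudins Cldn3 (0.10 ± 0.11, limma adjusted p = 0.52), Cldn4 (-0.02 ± 0.09, limma adjusted p = 0.88) and Cldn7 (-0.10 ± 0.13, limma adjusted p = 0.61) did not pass. Cldn1 (0.09) and Ocln (0.44) did not pass at day 6 alone. At day 10 alone Pard6b (-0.18) and Pkp3 (-0.09) did not, so that 1 member fell, and Pkp3 also lost its call without SKO+Flag replicate 2 of day 6 or replicate 1 of day 10 (limma adjusted p = 0.080 and 0.070). The 6-array fit did not call Epcam (limma adjusted p = 0.056), Cldn1, Pard6b or Pkp3, so that 1 member fell. The difference of Epcam was 0.54 at day 6 and 3.26 at day 10, and that fit counts this change as spread.

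Of 18 epithelial transcription and splicing regulators 1 rose and 3 fell, and 11 were below the array medians throughout. The riser was Ehf, an ETS factor, at 6.37 and 6.36 at day 6 and 6.54 and 6.79 at day 10 against 4.99 at day 6 and 4.95 at day 10 (1.55 ± 0.09 SE, limma adjusted p = 1.2e-07). Grhl2 (0.06 ± 0.06, limma adjusted p = 0.53) and the splicing factor Esrp1 (0.13 ± 0.07, limma adjusted p = 0.17) did not pass; with day 10 by itself Esrp1 did (0.33, limma adjusted p = 0.029). Without SKO+Flag day 6 replicate 1 the count of risers was 2, and at day 10 alone 2 rose and 1 fell. Simple keratins had 3 higher (Krt80 0.80 ± 0.08, Krt19 0.62 ± 0.06, Krt8 0.37 ± 0.13, with 0.06 at day 6 and 0.68 at day 10) and 1 lower (Krt7 -0.68 ± 0.10, with -0.94 at day 6 and -0.41 at day 10) of 7. Krt8 lost its call without SKO+Flag day 6 replicate 1 or 2 (limma adjusted p = 0.093 and 0.062). At day 6 alone 1 rose and 1 fell, and at day 10 alone 4 and 0. Keratinocyte markers had 8 higher and 0 lower of 15, led by the hemidesmosomal integrin subunits Itgb4, at 8.64 and 8.52 at day 6 and 8.94 and 9.02 at day 10 against 5.96 at day 6 and 5.70 at day 10 (2.95 ± 0.08 SE, limma adjusted p = 3e-10), and Itga6 (1.79 ± 0.05). Krt5 (-0.10 ± 0.09, limma adjusted p = 0.45) and Trp63 (0.01 ± 0.05, limma adjusted p = 0.89), both markers of basal keratinocytes, did not pass. The keratins Krt14, Krt16 and Krt6a were among the 8 risers. At day 6 alone 4 keratinocyte markers rose, and at day 10 alone 9 rose and 1 fell. In the 6-array fit 1 simple keratin rose, without Krt19 and Krt8, and 5 keratinocyte markers rose, without Krt14, Krt16 and Krt6a.

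Genes of cell division rose. Of 29 mitosis and kinetochore genes 27 rose and 0 fell (median 0.61). Mki67, which encodes the proliferation antigen Ki-67, lay at 8.72 and 8.53 at day 6 and 7.93 and 8.65 at day 10 in SKO+Flag and 7.40 at day 6 and 6.99 at day 10 in GFP (1.26 ± 0.15 SE, limma adjusted p = 5.1e-05). The groups did not overlap, although the day 10 arrays of SKO+Flag differed from each other more than the day 6 arrays did. Anln (anillin) rose by 1.25, the centromeric histone Cenpa by 1.00 and the cyclin Ccna2 by 0.89. Kif20a (0.19 ± 0.07, limma adjusted p = 0.064) and Cdc20 (0.20 ± 0.08, limma adjusted p = 0.073) did not pass, though Cdc20 did without SKO+Flag day 6 replicate 2 (0.24, limma adjusted p = 0.048). Of 29 replication genes 22 rose and 0 fell (median 0.39), with both ribonucleotide reductase subunits, Rrm1 (1.06 ± 0.06) and Rrm2 (1.05 ± 0.06), and the helicase subunit Mcm6 (0.93 ± 0.05) in the lead. Without SKO+Flag day 10 replicate 2, 21 rose and 1 fell.

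The cell cycle homology region, TTTGAA, a promoter element known from genes that peak in mitosis, stood on either strand in 19 of the 25 mitosis genes with a promoter (76.0%). Over all genes with a promoter the share was 20.2%, and over all promoters 17.9%. Mki67 is shown because it had the largest rise among the 19 (GRCm38.p6, chr7:135716330-135716629, minus strand, RefSeq). The capitals mark the element, which starts at bases -116 and -98.
Mki67: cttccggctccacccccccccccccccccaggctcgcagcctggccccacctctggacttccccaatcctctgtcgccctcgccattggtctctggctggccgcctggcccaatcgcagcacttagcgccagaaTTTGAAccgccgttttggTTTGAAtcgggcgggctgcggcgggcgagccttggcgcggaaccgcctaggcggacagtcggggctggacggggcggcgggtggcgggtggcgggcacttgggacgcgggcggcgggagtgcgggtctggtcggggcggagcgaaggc

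Brakes on division fell in part. Of 22 p53, Ink4 and senescence genes 14 fell and 6 rose (median -0.40). Cdkn2a, from which the inhibitors p16 and p19Arf are made, lay at 6.39 and 6.80 at day 6 and 6.92 and 6.75 at day 10 against 7.62 at day 6 and 7.60 at day 10 in GFP (-0.89 ± 0.11 SE, limma adjusted p = 8.3e-05). Its neighbour Cdkn2b lay at 7.55 and 7.56 at day 6 and 7.11 and 7.20 at day 10 against 8.62 at day 6 and 8.10 at day 10 (-1.01 ± 0.05 SE, limma adjusted p = 5e-08). Plk2, a p53 target, fell (-1.59), and the p53-responsive Btg2 and Zmat3 (-0.71 and -0.67). Perp, which is on this list as well as among the junction genes, went the other way (2.22 ± 0.06). Rb1, the retinoblastoma gene, rose, at 9.07 and 8.97 at day 6 and 8.48 and 8.83 at day 10 against 6.66 at day 6 and 6.02 at day 10 (2.50 ± 0.09 SE, limma adjusted p = 2.7e-09). The lamin gene Lmnb1, known to fall in senescent cells, rose by 0.67.

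Cholesterol synthesis genes rose together: 17 of 19 rose and 0 fell (median 0.59). The largest were the sterol isomerase Ebp (1.16 ± 0.07), the isopentenyl isomerase Idi1 (1.01 ± 0.11), the sterol oxidase Msmo1 (0.81 ± 0.06, with 0.45 at day 6 and 1.17 at day 10) and squalene synthase Fdft1 (0.80 ± 0.07, with 0.46 at day 6 and 1.14 at day 10), with the regulator Srebf2 at 0.71 ± 0.07. Mvk (-0.02 ± 0.07, limma adjusted p = 0.83) and Mvd (0.10 ± 0.06, limma adjusted p = 0.26) did not pass; with day 10 by itself Mvd did (0.30, limma adjusted p = 0.028). In the day 6 comparison alone 10 members rose. Hmgcs1, which makes the precursor of mevalonate, lay at 9.79 and 9.75 at day 6 and 9.68 and 9.84 at day 10 in SKO+Flag and at 9.64 at day 6 and 8.87 at day 10 in GFP (0.51 ± 0.07 SE, limma adjusted p = 0.00014). The day 6 GFP array was close to the SKO+Flag arrays and the day 10 array well below them, so the difference was 0.14 at day 6 (limma adjusted p = 0.37) and 0.89 at day 10 (limma adjusted p = 3.9e-05), and in the 6-array fit its mean did not pass (limma adjusted p = 0.077). The sterol element TCACNCCAC stood on either strand in 1 of 15 members with a promoter (6.67%), against 1.44% of all genes with one and 1.24% of all promoters. That member, Hmgcs1, is shown for this reason (GRCm38.p6, chr13:119690101-119690400, plus strand, RefSeq), with the element in capitals from base -137.
Hmgcs1: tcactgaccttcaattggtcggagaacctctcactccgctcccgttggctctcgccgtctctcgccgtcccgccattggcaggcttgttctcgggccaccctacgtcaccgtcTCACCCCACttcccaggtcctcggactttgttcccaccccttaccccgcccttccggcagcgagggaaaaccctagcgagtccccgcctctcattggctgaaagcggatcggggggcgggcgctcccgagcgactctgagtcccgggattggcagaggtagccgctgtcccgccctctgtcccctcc

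Genes of fatty acid synthesis and storage had 9 higher and 4 lower of 21. Cd36, which takes up fatty acids, lay at 6.88 and 6.72 at day 6 and 7.02 and 7.64 at day 10 against 4.56 at day 6 and 4.59 at day 10 in GFP (2.49 ± 0.17 SE, limma adjusted p = 4.4e-07), and the desaturase Scd1 at 10.05 and 10.16 at day 6 and 10.11 and 10.18 at day 10 against 8.77 at day 6 and 8.19 at day 10 (1.65 ± 0.05 SE, limma adjusted p = 1e-09). Pparg, the regulator of fat cells, fell (-0.63, with -0.37 at day 6 and -0.90 at day 10). In glycolysis and the hypoxia response 15 of 24 fell and 6 rose (median -0.33). Paralogs went apart: the glucose transporter Slc2a1 fell (-0.83, with -1.20 at day 6 and -0.46 at day 10) while Slc2a3 rose by 2.13, and the phosphofructokinase Pfkl fell (-1.09, with -1.47 at day 6 and -0.71 at day 10) while Pfkp rose by 1.17. The aldolase Aldoa fell (-0.56) while Aldoc rose by 0.89, with 0.14 at day 6, which did not pass, and 1.65 at day 10. Slc2a3 lay at 8.06 and 8.05 at day 6 and 8.46 and 8.59 at day 10 against 6.12 at day 6 and 6.21 at day 10 and Pfkp at 8.54 and 8.54 at day 6 and 8.39 and 8.40 at day 10 against 7.52 at day 6 and 7.08 at day 10, with no overlap in either. By the 6-array fit 5 fatty acid genes rose and 2 fell, and of the glycolysis and hypoxia genes 3 rose, without Aldoc.

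Of 29 respiratory chain genes 6 rose and 1 fell (median 0.02), and after quantile normalization 1 rose and 5 fell. The largest rise was that of Ndufa4 (0.87 ± 0.06), and the faller was Ndufv1 (-0.33 ± 0.09), which lost its call at either day alone (-0.38 and -0.27). At day 6 alone 1 rose, at day 10 alone 3; without SKO+Flag day 6 replicate 2, 2 rose, and without day 10 replicate 1 or 2, 3 rose. Ribosome biogenesis genes had 13 lower and 2 higher of 29, with Wdr12 at -0.51 ± 0.08, Nop2 at -0.45 ± 0.06 and the riser Rrs1 at 0.47 ± 0.15. Rrs1 lost its call at either day alone and without SKO+Flag replicate 2 of day 6 or replicate 1 of day 10 (limma adjusted p = 0.063 in both). With day 6 by itself 9 fell and 0 rose, at day 10 alone 6 and 1. The 6-array fit called 1 riser and 0 fallers in the respiratory chain, and 0 risers among ribosome biogenesis genes.

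Genes of the amino acid stress response under ATF4 fell: 20 of 25 did so and 2 rose (median -0.49). The pseudokinase Trib3 (-1.58 ± 0.06), the amino acid transporter Slc7a5 (-1.58 ± 0.07), Phgdh, which starts serine synthesis (-1.52 ± 0.10), and the mitochondrial folate enzyme Mthfd2 (-1.34 ± 0.08) led, and Atf4 itself fell (-0.65). The risers were the cationic amino acid transporter Slc7a3 (1.88 ± 0.06, with 0.50 at day 6 and 3.25 at day 10) and Wars, a transfer RNA synthetase gene (0.16 ± 0.05). Wars lost its call at either day alone and without SKO+Flag replicate 1 of day 6 or replicate 1 of day 10 (limma adjusted p = 0.074 and 0.071), which leaves 1 riser. Of 28 oxidative stress and detoxification genes 13 rose and 10 fell. Beside the aldo-keto reductases and Aldh3a1, the glutathione transferases Gsta4 (2.86 ± 0.06) and Mgst1 (1.65 ± 0.07) and the mitochondrial superoxide dismutase Sod2 (1.33 ± 0.06) rose, whereas Hmox1 (-1.21 ± 0.10) and Akr1b8 (-1.58 ± 0.07) fell. In the 6-array fit 0 genes of the ATF4 list rose, and Slc7a3 had a limma adjusted p of 0.060. The change of Slc7a3 between the days counts as spread in that fit.

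Immune genes were mixed. Of 24 interferon-stimulated genes 9 fell and 4 rose, with Ifit1 at -1.56 ± 0.09, Ifit3 at -1.35 ± 0.08 and the guanylate-binding Gbp3 at 1.20 ± 0.09. Antigen presentation had 3 higher (H2-Q4 0.50 ± 0.07, Tapbp 0.48 ± 0.06, with 0.29 at day 6 and 0.66 at day 10, Erap1 0.40 ± 0.11) and 3 lower (Tap1 -0.56 ± 0.07, Tap2 -0.33 ± 0.10, Psmb8 -0.22 ± 0.07, with -0.41 at day 6 and -0.03 at day 10) of 12. Tap2 and Psmb8 lost their calls without SKO+Flag day 6 replicate 1 (limma adjusted p = 0.053 and 0.064), which leaves 1 faller, and Erap1 at either day alone. Among chemokines and inflammatory genes 8 of 28 rose and 12 fell. Vcam1, the ligand of the integrin that holds Itga4, lay at 10.77 and 10.65 at day 6 and 10.47 and 10.53 at day 10 against 8.25 at day 6 and 8.96 at day 10 (2.00 ± 0.06 SE, limma adjusted p = 8.3e-10), and Ptgs2, the inducible cyclooxygenase, at 10.68 and 10.71 at day 6 and 9.80 and 10.02 at day 10 against 8.75 at day 6 and 8.22 at day 10 (1.82 ± 0.07 SE, limma adjusted p = 4.2e-09). The growth factor Csf1 fell (-1.81) and the prostaglandin synthase Ptges (-1.23). Complement genes had 3 higher and 5 lower of 13, 2 of them lower at day 6 alone. The complement inhibitors Cd55, at 8.38 and 8.01 at day 6 and 8.63 and 9.15 at day 10 against 5.82 at day 6 and 5.72 at day 10 (2.77 ± 0.14 SE, limma adjusted p = 3.7e-08), and Serping1 (1.12 ± 0.08) rose, and the protease Masp1 fell (-1.05). The 6-array fit called 1 faller in antigen presentation and 3 among complement genes, and it did not call Tap2, Psmb8 or Erap1.

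Of 28 neuropeptides, hormones and their receptors 10 rose and 9 fell. After Gpr50 and Trh, the natriuretic peptide gene Nppb (1.91 ± 0.10) and Calcb, a calcitonin gene-related peptide (1.42 ± 0.09), rose most. The opioid precursor Penk fell (-2.29) and the angiotensin receptor Agtr2 (-2.23). The homeobox clusters keep the position along the body axis. In the A and B clusters 4 of 19 fell and 1 rose, with Hoxb9 at -0.93 ± 0.08; 2 fell at day 6 alone, and 2 rose without SKO+Flag day 10 replicate 1. In the C and D clusters 7 of 18 fell and 1 rose, with Hoxc8 at -0.71 ± 0.08; 3 fell and 0 rose at day 6 alone and 4 fell at day 10 alone. In the 6-array fit 2 genes of the A and B clusters fell, and 0 of the C and D clusters rose.

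Markers of other cell types moved gene by gene, and their part in the results above was not tested. Of 16 macrophage and blood markers 13 lay below the array medians on all 6 arrays, among them the defining Ptprc (-0.10 ± 0.05, limma adjusted p = 0.16) and Csf1r (-0.05 ± 0.07, limma adjusted p = 0.63). Laptm5, a lysosomal protein of blood cells, rose nonetheless, at 8.09 and 8.02 at day 6 and 8.47 and 8.45 at day 10 against 5.19 at day 6 and 5.55 at day 10 (2.89 ± 0.07 SE, limma adjusted p = 2.5e-10), with Itgam (1.00 ± 0.06) and Cd68 (0.55 ± 0.08). The 5 fallers, none past -0.25 (Ctss), numbered 1 or 2 at either day alone and without SKO+Flag replicate 1 of day 6 or replicate 2 of day 10. Of 16 endothelial markers 2 rose and 3 fell, at day 6 alone 3 and 2, and at day 10 alone 3 and 4. The receptor Tek rose, at 7.56 and 7.39 at day 6 and 8.27 and 8.43 at day 10 against 5.13 at day 6 and 5.14 at day 10 (2.78 ± 0.08 SE, limma adjusted p = 4.2e-10). Cd34 rose too (1.65 ± 0.08, with 0.65 at day 6 and 2.65 at day 10). The receptor Flt1 had the largest fall (-0.91 ± 0.07, with -0.50 at day 6 and -1.33 at day 10). The defining Pecam1 (-0.04 ± 0.08, limma adjusted p = 0.76) and Kdr (-0.02 ± 0.10, limma adjusted p = 0.91) did not pass. Of 14 neural and glial markers 3 rose and 2 fell (1 at day 10 alone). Stmn2, a microtubule regulator of neurons, lay at 10.70 and 10.68 at day 6 and 10.30 and 10.39 at day 10 against 8.05 at day 6 and 6.79 at day 10 (3.10 ± 0.05 SE, limma adjusted p = 4.4e-12), the neurofilament gene Nefl rose by 1.56 and Map2 fell (-1.06). By the 6-array fit 0 macrophage and blood markers fell.

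Of 20 striated muscle markers 8 fell and 1 rose, led by Des (-0.81 ± 0.09) and Acta1 (-0.77 ± 0.12); at day 6 alone 5 fell and 0 rose, at day 10 alone 4 fell, and without SKO+Flag day 6 replicate 1, 5 fell and 2 rose. Of 13 adipocyte and cartilage markers 5 fell and 2 rose, with the cartilage genes Comp (-0.92 ± 0.10; -0.28 at day 6, which did not pass) and Sox9 (-0.87 ± 0.05) lower and the phosphatase Alpl (0.74 ± 0.06) higher; 3 fell at day 6 alone and 2 at day 10 alone. Of 14 endoderm and trophoblast markers 1 rose (Dab2, 0.49 ± 0.06, with 0.08 at day 6) and 2 fell (Foxa2, -0.25 ± 0.08, and Cdx2, -0.16 ± 0.05, with -0.27 at day 6 and -0.05 at day 10). At day 6 alone 0 of them rose and at day 10 alone 1 fell. Leaving out SKO+Flag day 6 replicate 1 or 2 left 1 faller, and leaving out day 10 replicate 2 left 0. The 6-array fit called 5 fallers in striated muscle and 3 in adipocyte and cartilage markers, without Comp. Of the endoderm and trophoblast markers it called 0 risers and 1 faller, without Dab2 and Cdx2.

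The difference between SKO+Flag and GFP was not constant in time. Of all genes, 1900 rose and 1327 fell at both days taken separately. The change between days, tested as the day 10 difference minus the day 6 difference, was called for 1008 genes (5.06%): 379 (1.90%) went up and 629 (3.16%) went down. In 559 of the 1008 the difference kept its sign and grew, in 158 it kept its sign and shrank, and in 291 the signs at the 2 days were opposite. Among the 629 that went down, GFP itself was higher at day 10 than at day 6 in 597, and the GFP shift was larger than the SKO+Flag shift in 404. Among the 379 that went up, GFP was lower at day 10 in 331, SKO+Flag was higher at day 10 in 347, and the GFP shift was the larger in 160. The GFP shift is the difference of 2 single arrays.

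**Figure D3:**
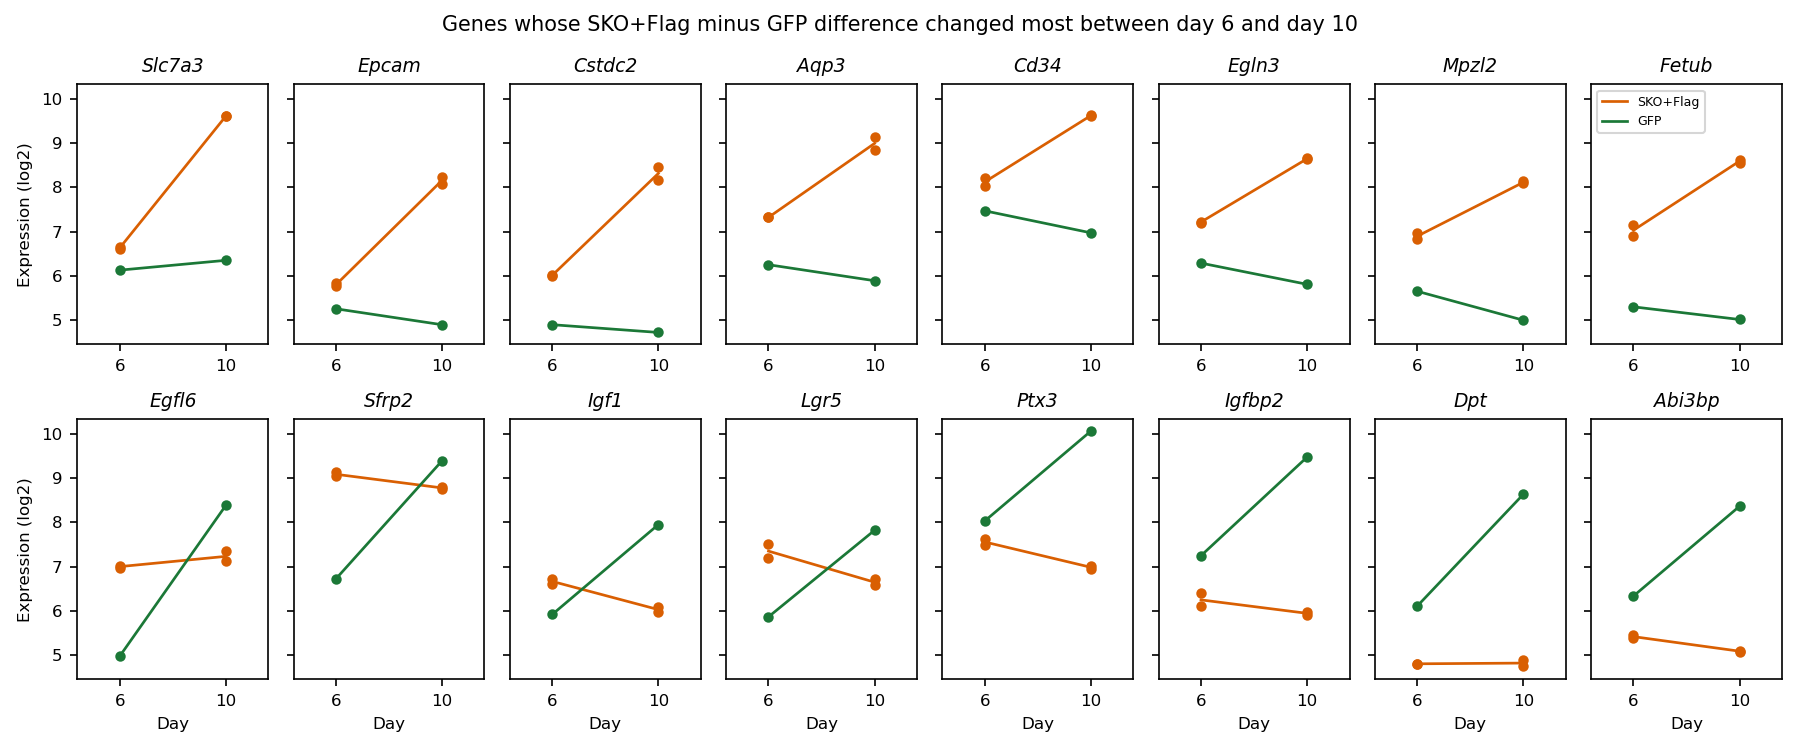
Log2 expression (y axis, as deposited) at day 6 and day 10 (x axis) of the 8 genes whose difference between SKO+Flag and GFP went up most (top row) and the 8 whose difference went down most (bottom row); points are arrays and lines join the group means, with 1 GFP array per day. In the top row the SKO+Flag lines climb, with Slc7a3 moving by 2.97 in SKO+Flag and 0.22 in GFP, and in the bottom row the GFP lines climb, with Sfrp2 moving by 2.67 in GFP and -0.31 in SKO+Flag.

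The 8 genes whose difference went up most all climbed in SKO+Flag, and most of them encode membrane proteins. Slc7a3 lay at 6.61 and 6.66 at day 6 and 9.61 and 9.60 at day 10 in SKO+Flag and at 6.13 at day 6 and 6.35 at day 10 in GFP, a change of 2.75 ± 0.12 (SE, limma adjusted p = 1.6e-06). Epcam, the epithelial cell adhesion molecule, lay at 5.84 and 5.76 at day 6 and 8.08 and 8.24 at day 10 against 5.26 at day 6 and 4.90 at day 10, a change of 2.72 ± 0.17 (SE, limma adjusted p = 1.2e-05). Aqp3, a channel for water and glycerol, lay at 7.33 and 7.32 at day 6 and 9.14 and 8.84 at day 10 against 6.25 at day 6 and 5.89 at day 10, a change of 2.03 ± 0.15 (SE, limma adjusted p = 3e-05). In each the SKO+Flag arrays of day 10 stood above those of day 6, and all 4 stood above GFP. Cstdc2, of the cystatin family, changed by 2.48, the surface sialomucin Cd34 by 2.00, the prolyl hydroxylase Egln3 of the hypoxia response by 1.91, the epithelial adhesion gene Mpzl2 by 1.87 and the secreted Fetub by 1.85. Krt19 lay at 6.49 and 6.47 at day 6 and 7.29 and 7.22 at day 10 against 6.60 at day 6 and 5.89 at day 10, so that its difference was -0.12 at day 6 and 1.36 at day 10.

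The 8 genes whose difference went down most all climbed in GFP, and most of them encode secreted proteins. Sfrp2, a Wnt antagonist, lay at 9.04 and 9.13 at day 6 and 8.80 and 8.75 at day 10 in SKO+Flag and at 6.72 at day 6 and 9.39 at day 10 in GFP, a change of -2.97 ± 0.10 (SE, limma adjusted p = 3.8e-07). The difference was 2.36 at day 6 and -0.61 at day 10. Egfl6, a matrix protein with EGF repeats, lay at 7.02 and 6.98 at day 6 and 7.12 and 7.34 at day 10 against 4.98 at day 6 and 8.38 at day 10, a change of -3.17 ± 0.16 (SE, limma adjusted p = 5.6e-06). In both genes the GFP value of day 6 was below all SKO+Flag arrays and that of day 10 above them all. Lgr5, a receptor for R-spondins, lay at 7.50 and 7.19 at day 6 and 6.57 and 6.72 at day 10 against 5.86 at day 6 and 7.82 at day 10 (1.48 at day 6 and -1.17 at day 10), and Igf1 at 6.73 and 6.60 at day 6 and 5.96 and 6.09 at day 10 against 5.92 at day 6 and 7.95 at day 10 (0.75 and -1.92). The mean of both days averages over these opposite signs. For Egfl6, Sfrp2 and Lgr5 the mean was 0.44, 0.87 and 0.16, and without the day 6 GFP array it becomes the day 10 value, of opposite sign. Lgr5 passed as a mean without SKO+Flag day 6 replicate 2 (0.23, limma adjusted p = 0.045). For Igf1 the mean was -0.59 and becomes 0.75 without the day 10 GFP array. Ptx3, a pentraxin of the innate response, Dpt, a collagen-binding matrix protein, Abi3bp and Igfbp2 were lower in SKO+Flag at both days. Their differences at day 10 were -3.07, -3.81, -3.27 and -3.53, and those of the first 3 at day 6 were -0.47, -1.30 and -0.92. Dpt lay between 4.76 and 4.88 on all 4 SKO+Flag arrays and at 6.11 at day 6 and 8.63 at day 10 in GFP.

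The matrix lists followed that pattern. For small leucine-rich proteoglycans the median difference was -0.08 at day 6 and -1.12 at day 10, and 7 of 13 members changed downward and 0 upward. The median shift from day 6 to day 10 was 0.78 in GFP and -0.05 in SKO+Flag. For elastic fibre and cross-linking genes 13 of 20 changed downward, with median shifts of 0.47 in GFP and -0.33 in SKO+Flag. Matricellular genes had 15 of 26 downward and 1 upward (shifts 0.35 and -0.16), collagens 10 of 28 and 1 (shifts 0.29 and -0.02), and the IGF axis 8 of 15 and 1 (shifts 0.57 and -0.14). In each of these lists the median GFP shift was the larger of the pair in size.

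Contractile genes differed from the matrix lists in where the shift lay. Of 18 members 13 changed downward and 0 upward, and the median shift was 0.05 in GFP and -0.52 in SKO+Flag. Cnn1 fell from 7.26 and 7.26 at day 6 to 5.75 and 5.78 at day 10 in SKO+Flag, while GFP lay at 9.08 and 8.99. For cholesterol synthesis genes 9 of 19 changed upward and 0 downward, with a median shift of -0.48 in GFP and -0.01 in SKO+Flag. Their SKO+Flag levels were thus near constant between the days and their GFP levels lower at day 10. In glycolysis and hypoxia 7 of 24 changed upward and 2 downward (shifts -0.28 and 0.07). Keratinocyte markers had 5 of 15 upward (shifts -0.10 and 0.20) and junction genes 6 of 27 upward and 1 downward (shifts -0.06 and 0.13).

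Genes of cell division differed by similar amounts at both days. The median difference of mitosis genes was 0.62 at day 6 and 0.60 at day 10, with 1 of 29 changed upward and 0 downward, and that of replication genes was 0.43 and 0.35, with 1 of 29 changed downward. For p53, Ink4 and senescence genes the medians were -0.41 and -0.44, with 1 of 22 changed upward and 0 downward. Among the large differences, Gpr50 (5.62 and 5.98), Laptm5 (2.87 and 2.91), Tgfbr3 (-2.31 and -2.36) and Lama2 (1.66 and 1.62) were close at the 2 days and did not pass the test of change. Trh went from 4.28 to 5.61 (a change of 1.34 ± 0.15 SE, limma adjusted p = 0.00053) and Akr1c18 from 6.30 to 5.51 (a change of -0.79 ± 0.10 SE, limma adjusted p = 0.0012).

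**Figure D4:**
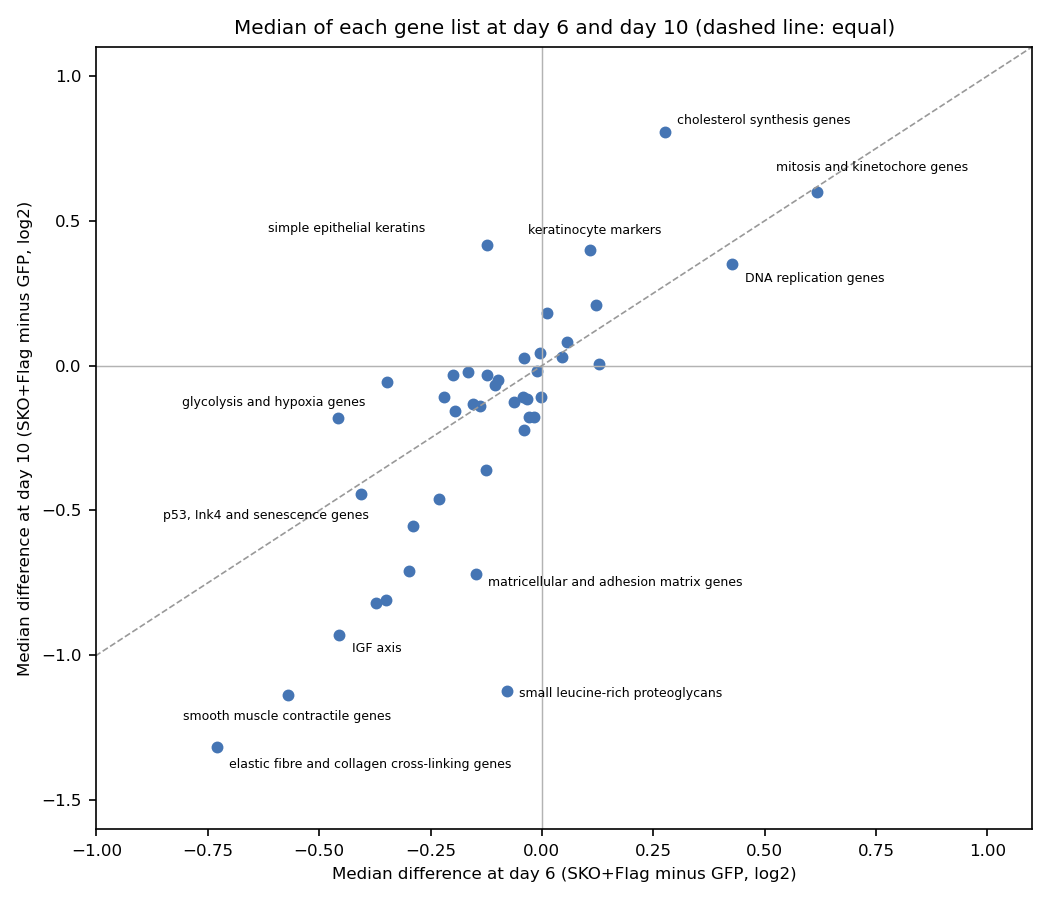
Median difference between SKO+Flag and GFP (log2) of each gene list at day 6 (x axis) and at day 10 (y axis), with 1 point per list; on the dashed line both days are equal. Small leucine-rich proteoglycans lie at -0.08 and -1.12 and cholesterol synthesis genes at 0.28 and 0.81, away from the line, and mitosis genes at 0.62 and 0.60 close to it.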

How the data were processed

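Total RNA was hybridised to Affymetrix whole-transcript arrays, per the labels' protocols. The deposited values are log2 expression levels per probe set, used as they stood; RMA and Partek are named in the submitters' processing notes, and the genome build is not given in the sources used here. Of 28815 probe sets 21780 had 1 gene symbol in the platform annotation, 1605 had several and 5430 were unnamed here; the last 2 kinds were left out. Of the 21780, 21689 matched a RefSeq gene table by Entrez ID and 91 kept their annotated symbol. A gene with over 1 probe set (998 genes) took the one with the highest mean over 14 arrays. Of 997 list entries (44 lists) 932 were measured.

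One group-means model (limma 3.58.1 in R 4.3.3, lmFit and eBayes; 6 residual and 4.71 prior degrees of freedom) was fitted to 14 arrays in 8 groups of vector and day. P-values were adjusted by Benjamini-Hochberg over 19935 genes, and genes were called under 0.05. The procedure was tested on simulated data. The comparison, its lists and its rules were chosen with earlier results of these data known. Named genes were the transduced factors, the 15 called genes with the largest difference in each direction and 1 sign in 4 of 4 same-day pairs, the 8 with the largest change between days in each direction, and up to 3 called members of each list; others were named to show where a list split. Promoters (RefSeq, GRCm38.p6) were searched on both strands, and the promoter of the called member with the largest difference that held the motif is shown. Alternatives were a fit to the compared arrays alone, an intensity trend with robust prior, quantile normalization, median centring, averaging a gene's probe sets, only genes above the median level, a replicate block and leaving out each array. The number of arrays limits the precision.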

Additional observations from a re-analysis of the deposited data

Results flagged for a closer look

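For 76 of the 153 named genes the difference between SKO+Flag and GFP was itself different at day 6 and day 10. The limma test of that change was used at an adjusted p under 0.05. The named genes include those picked for the largest changes by this same test, and many others were picked for large differences. Their count is therefore partly fixed by the choice. Over all 19935 genes the change was called for 1008 (5.06%). The change is the day 10 difference minus the day 6 difference, and each day rests on 1 GFP array.

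In 25 genes the difference moved upward with no turn of sign. The largest changes were 2.75 for Slc7a3, 2.72 for Epcam, 2.48 for Cstdc2, 2.03 for Aqp3, 2.00 for Cd34, 1.91 for Egln3 and 1.87 for Mpzl2. Next in size were 1.85 for Fetub, 1.34 for Trh, 1.21 for Tfcp2l1, 1.02 for L1td1, 0.99 for Podxl, 0.94 for Pkp1 and 0.92 for Stmn2. Then followed 0.90 for Spint2, 0.86 for Tek, 0.82 for Dab2, 0.77 for Ano1, 0.72 for Msmo1, 0.71 for Itga6 and 0.66 for Itgb4. The remaining changes were 0.62 for Scd1, 0.53 for Ceacam1, 0.52 for Perp and 0.48 for Sbspon.

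In 38 genes the difference was below 0 at both days and further below at day 10. The largest changes were -2.60 for Ptx3, -2.53 for Igfbp2, -2.51 for Dpt, -2.36 for Abi3bp, -2.30 for Mfap4, -2.24 for Dlk1, -2.12 for Postn and -1.89 for Aspn. These were followed by -1.77 for Rspo2, -1.74 for Igfbp5, -1.72 for Col12a1, -1.69 for Mest, -1.54 for Myl9, -1.46 for Lox, -1.40 for Cnn1 and -1.40 for Igf2. Of middling size were -1.39 for Tagln, -1.36 for Itga11, -1.35 for Svep1, -1.28 for Adm, -1.28 for Comp, -1.25 for Ptn, -1.24 for Cxcl12 and -1.15 for Bmp4. Then came -1.10 for Lum, -1.07 for Pdgfrb, -1.05 for Snai2, -0.96 for Col5a1, -0.93 for Tgfb3, -0.85 for Slc7a5, -0.83 for Flt1 and -0.80 for Gas1. The smallest changes were -0.76 for Col3a1, -0.71 for Loxl1, -0.70 for Ifit3, -0.58 for Map2, -0.54 for Trib3 and -0.51 for Dkk3.

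In 7 genes it was above 0 at both days and smaller at day 10. The changes were -1.01 for Akr1c14, -0.92 for Vcam1, -0.86 for Epha7, -0.79 for Akr1c18, -0.75 for Sostdc1, -0.65 for Itgam and -0.51 for Tmem229b.

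In 6 genes it changed sign. The difference of Krt19 went from -0.12 to 1.36, a change of 1.48. That of Lpl went from 1.80 to -0.53 (-2.33). That of Lgr5 went from 1.48 to -1.17 (-2.66). That of Igf1 went from 0.75 to -1.92 (-2.67). That of Sfrp2 went from 2.36 to -0.61 (-2.97). That of Egfl6 went from 2.02 to -1.15 (-3.17).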

How the results depend on the processing

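Fits to the compared arrays alone, which rest on less information about the spread, called 4510 genes as the mean of both days (2431 higher, 2079 lower; with vector and day as additive terms), 3012 at day 10 and 206 for the change between days (63 upward, 143 downward), against 7118, 5359 and 1008 from all arrays. The other alternatives kept these counts within 1.5 times; leaving out each array gave 4798 to 7550 genes for the mean, 3753 to 5223 for day 6, 4652 to 5584 for day 10 and 799 to 1221 for the change. Median centring gave 3773 higher and 2865 lower genes for the mean and moved the median of all genes from -0.04 to 0.00, whereas quantile normalization gave 3256 higher and 3829 lower.

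Without the GFP array of day 6 the mean becomes the day 10 difference, and without that of day 10 the day 6 difference. Over single arrays left out, values ran from -1.15 to 2.02 for Egfl6, -0.61 to 2.36 for Sfrp2, -1.17 to 1.48 for Lgr5, -0.53 to 1.80 for Lpl, -1.92 to 0.75 for Igf1 and -0.12 to 1.36 for Krt19; in the first 4 the lower end, from day 10, and in the last 2 the day 6 end turned the sign. Of the 153 named genes, the fit to the 6 arrays alone lost 16 calls (Slc7a3, Epcam, Egfl6, Sfrp2, Igf1, Ptx3, Krt19, Lpl, Ndufv1, Cycs, Rrs1, Hoxa11, Hoxc10, Dab2, Cdx2 and Comp), quantile normalization 4, and the trend, probe set mean and median centring 1 each. Several of the 16, such as Slc7a3, Epcam, Egfl6 and Sfrp2, had large changes between the days, which that fit counts as spread. The experiment numbers were not used to pair the samples in the main fit, and GFP carries none. Differences between replicates 1 and 2 correlated at -0.22 to 0.20 between SKO groups, and over 0.1 in 4 of 15 pairs of groups. Whether arrays of the same number shared a culture or batch cannot be told from these values. With the replicate block 7104 genes were called for the mean, 4773 for day 6, 5352 for day 10 and 988 for the change, and of the named genes Cycs lost its call.

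Counts of higher or lower members moved by over 1.5 times in 23 of 44 lists with the 6 arrays alone, 12 after quantile normalization, 5 after median centring and 15 with genes above the median level, which drops dim members. Leaving out either GFP array moved them in more lists than quantile normalization did, and leaves the counts of the other day alone. Each GFP group is 1 array, so an accident of that array cannot be told apart from a change of the GFP cells between days. For genes that are dim on the GFP arrays a rise may be understated.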

Other observations

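Of all genes, 59 were called at both days with opposite signs. Among those named above, Lpl, the lipoprotein lipase, lay at 7.45 and 7.72 at day 6 and 7.07 and 7.36 at day 10 in SKO+Flag and at 5.78 at day 6 and 7.74 at day 10 in GFP, which gave differences of 1.80 at day 6 and -0.53 at day 10 (a change of -2.33 ± 0.20 SE, limma adjusted p = 7e-05). Cdkn1c lay at 8.08 and 8.05 at day 6 and 8.65 and 8.54 at day 10 against 7.60 at day 6 and 9.09 at day 10 (a change of -0.96 ± 0.13 SE, limma adjusted p = 0.0018). In both genes the GFP value was lower than every SKO+Flag array at day 6 and higher than every SKO+Flag array of day 10 at day 10. Mest, an imprinted gene, kept its sign and grew from -1.55 to -3.24, and Igfbp3 kept its sign and shrank from 3.25 to 1.06. Igfbp3 moved by 2.05 in GFP between the days and by -0.14 in SKO+Flag.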
